A study of Mus musculus with 15 samples.

Results

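Vascular endothelial growth factors (VEGF), angiopoietins and their receptors were followed in the lungs of mice exposed to osteosarcoma-derived factors. The set held 10 genes: Vegfa, Vegfc, Pgf, Kdr, Flt1, Flt4, Tek, Angpt1, Angpt2 and Nrp1. They were found by gene name among the 46603 genes of the counts table, where each matched 1 row, and all 10 were among the 15870 genes with enough counts to be tested. RNA came from lung tissue of athymic Swiss nude mice (Foxn1nu/nu), which lack a thymus and most T cells, aged 8 to 12 weeks. Control mice (CTR, n = 4) were compared with SCR-treated mice (n = 6), given 25 µL of concentrated secretome of the human osteosarcoma line 143B intraperitoneally each day for 1 week, and with PT-bearing mice (n = 5), which carried a subcutaneous tumour of luciferase-expressing 143B cells. Lungs of PT-bearing mice were taken at a tumour volume of 50 to 60 mm3, about 8 to 10 days into growth. The study describes its controls both as untreated and as vehicle-treated, and the labels do not say which applies to these CTR lungs. Both exposures rest on 1 human cell line in athymic hosts, and 1 library stood for each lung.

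VEGF-A binds the receptors VEGFR1 (Flt1) and VEGFR2 (Kdr) on endothelial cells, and VEGFR2 carries most of the signal for survival, permeability and growth of vessels. VEGF-C acts on VEGFR3 (Flt4), the receptor best known from lymphatic endothelium. Placental growth factor (Pgf) binds VEGFR1 but not VEGFR2 or VEGFR3, and neuropilin 1 (Nrp1) presents VEGF-A to VEGFR2. Angiopoietin 1 activates the receptor Tie2 (Tek) and keeps vessels quiet, whereas angiopoietin 2 is released by activated endothelium and often opposes it. In the lung, alveolar type 1 cells are a main source of VEGF-A, and the dense capillary bed holds most of the receptors.

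Total counts were 14167644 to 22109856 in CTR, 13078095 to 18621680 in the SCR lungs and 12767431 to 17386086 in the PT lungs. The lung label fitted the data, since surfactant protein C (Sftpc) reached at least 10923 CPM and the endothelial adhesion gene Pecam1 at least 791.6 CPM in every lung. CPM here are counts per 1000000 reads after scaling by TMM. SCR lungs 1, 2 and 3 stood apart from the other SCR lungs: 13 genes of the glucocorticoid response averaged 6.55, 6.60 and 6.36 on the log2 CPM scale there and 4.86 to 4.99 in SCR lungs 4 to 6, so the SCR values of the members and the counts over gene lists are also given without them. Leaving these lungs out was a choice made after seeing the data, and all values without them are to be read as such. Xist and Y-linked genes marked 4 lungs as female (SCR 4 and 6, PT 3 and 5) and all CTR lungs as male, so that sex is partly confounded with exposure. Without SCR lungs 1 to 3 the SCR group is lungs 4, 5 and 6, of which only lung 5 is male. That fit thus sets mostly female SCR lungs against male CTR lungs. Bulk RNA cannot tell fewer cells of a type from less RNA per cell.

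None of the 10 genes passed edgeR's quasi-likelihood test at an adjusted p under 0.05 in any of the 3 comparisons. Over all genes tested, the share that passed was 0.113% for SCR and 0% for PT lungs when set against CTR, and 0.0378% for the exposures set against each other. At an unadjusted p under 0.05, 3 members were lower in SCR lungs (Kdr, Flt4 and Tek) and none was higher, where 10.2% of all genes were lower and 8.58% higher. In PT lungs 3 members were lower (Flt1, Flt4 and Tek) and none was higher, beside 4.73% and 2.93% of all genes. All of these are receptors, and none of the 5 ligands had a p under 0.05 against CTR. The median log2 fold change of the 10 genes was -0.21 in SCR and -0.29 in PT lungs, beside 0.01 in both for all genes. PT and SCR lungs differed in none of the members at an unadjusted p under 0.05, where 5.6% of all genes were lower and 6.19% higher in PT lungs. These comparisons share the CTR lungs. By DESeq2 1 member, Flt4, passed the adjusted test in SCR lungs, where 2.33% of all genes did, and none in PT lungs, where 0.0924% did. These 2 shares are of 27049 genes, which include genes of low count, and not of the 15870 genes behind the edgeR shares. Leaving out SCR lungs 1 to 3, Flt4 and Tek kept an unadjusted p under 0.05 in SCR lungs, where 10.1% of all genes had one, and in PT lungs Kdr joined Flt1, Flt4 and Tek, where the share was 12.9%. With sex in the model, Kdr, Flt4 and Tek had one in SCR lungs (21.6% of all genes) and Kdr, Flt1, Flt4 and Tek in PT lungs (6.89%). In male lungs alone only Kdr and Flt4 had one in SCR lungs (24.3%), and only Flt1 and Flt4 in PT lungs (3.7%).

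**Figure D1:**
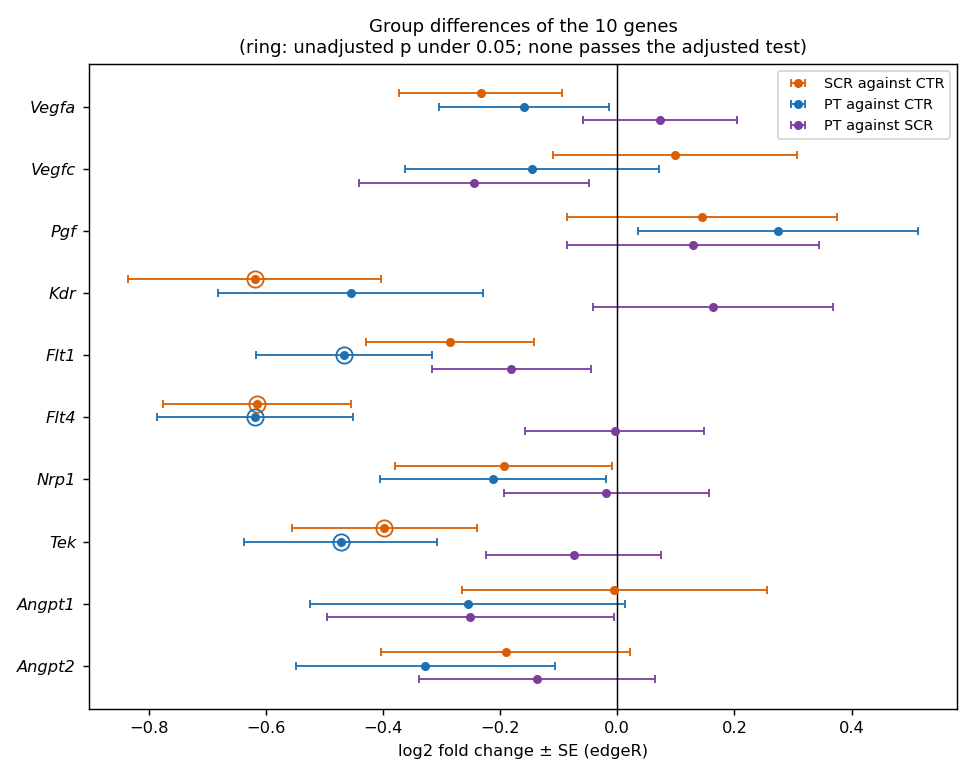
Log2 fold change (x axis) of each gene (y axis) with its standard error in SCR against CTR, PT against CTR and PT against SCR, from edgeR's fit of all 15 lungs; rings mark an unadjusted p under 0.05. The receptors Kdr, Flt1, Flt4 and Tek lie left of 0 against CTR in both exposures, from -0.29 to -0.62, whereas PT against SCR runs from -0.25 to 0.16.

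Per kilobase of gene length, which allows levels of different genes to be compared, Vegfa stood highest in CTR lungs at 182 ± 24.1 CPM per kb (SD, n = 4), with no overlap with the next gene. Tek followed at 122 ± 15.7 CPM per kb, and its lowest lung was just under the highest of Nrp1 (81.6 ± 17.4). Kdr had 65.4 ± 8.44, Angpt1 38.7 ± 19.9 and Flt1 26.1 ± 4.26 CPM per kb, and lungs of neighbours in this order overlapped. Flt1 stood above all lungs of the next gene. Flt4, Vegfc and Angpt2 lay together at 9.50, 9.44 and 8.61 CPM per kb and could not be ordered beyond their spread. Pgf was the scarcest at 2.18 ± 0.528 CPM per kb and rested on 39 to 99 reads per lung, against 6659 to 18581 for Vegfa.

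**Figure D2:**
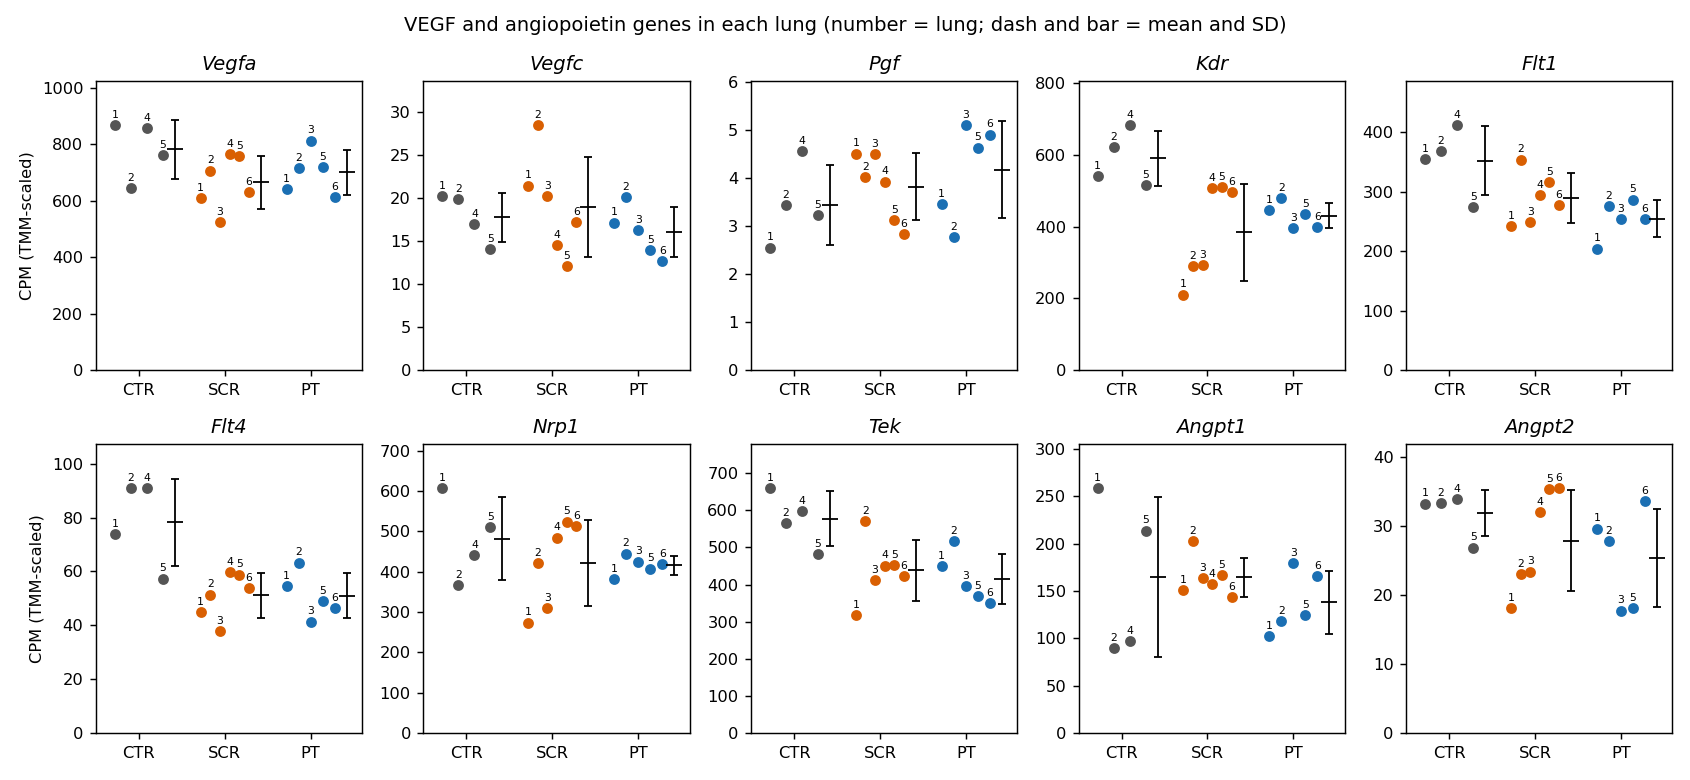
TMM-scaled CPM (y axis, from 0) of the 10 genes in each CTR, SCR and PT lung (x axis); points are lungs with their number, and the dash and bar give the mean and SD. Kdr of every SCR and PT lung lies below every CTR lung, SCR lungs 1 to 3 form the lowest points of Kdr (210 to 292 CPM), and Angpt1 splits the CTR lungs.

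Among the ligands, Vegfa (chr17:46016993-46032377, minus strand, GRCm38), the main growth factor of blood vessels, was at 867, 644, 856 and 760.3 CPM in CTR lungs 1, 2, 4 and 5. SCR lungs had 525 at the lowest, 668 at the median and 764 CPM at the highest. PT lungs 1, 2, 3, 5 and 6 had 641, 715, 813, 719 and 612 CPM. The groups overlapped, and SCR lung 3 was the lowest of all lungs. The log2 fold change was -0.23 ± 0.14 in SCR (SE, adjusted p = 0.376) and -0.16 ± 0.15 in PT lungs (SE, adjusted p = 0.846). Leaving out SCR lungs 1 to 3, the SCR value was -0.09.

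Vegfc (chr8:54077532-54186454, plus strand), the lymphatic growth factor, was at 20.2, 19.8, 16.9 and 14 CPM in CTR and at 17.1, 20.1, 16.2, 14 and 12.7 CPM in PT lungs. SCR lungs 1 to 6 had 21.4, 28.5, 20.3, 14.5, 12.1 and 17.2 CPM, so that SCR lungs 1, 2 and 3 were the highest of their group and lung 2 the highest of all lungs. The difference from CTR was 0.10 ± 0.21 on the log2 scale in SCR (SE, adjusted p = 0.839) and turned to -0.25 without SCR lungs 1 to 3. In PT lungs it was -0.15 ± 0.22 (SE, adjusted p = 0.916). Pgf (chr12:85166639-85177296, minus strand), placental growth factor, was at 2.55, 3.43, 4.56 and 3.23 CPM in CTR lungs. Its SCR lungs had 2.83 at the lowest, 3.97 at the median and 4.50 CPM at the highest, and PT lungs had 3.46, 2.77, 5.10, 4.63 and 4.90 CPM. PT lungs 3, 5 and 6 were above every CTR lung, and PT lungs 1 and 2 were within the CTR range. The log2 fold change of Pgf was 0.14 ± 0.23 in SCR lungs (SE, adjusted p = 0.776), or -0.03 without SCR lungs 1 to 3. In PT lungs it was 0.27 ± 0.24 (SE, adjusted p = 0.834).

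Vegfb, a VEGF ligand outside the set that binds VEGFR1, had log2 fold changes of 0.07 ± 0.18 (SE) in SCR and 0.02 ± 0.19 in PT lungs. Figf, the older symbol of Vegfd, a further ligand of VEGFR3, had a log2 fold change of -0.27 ± 0.14 with SCR (adjusted p = 0.315) and -0.48 ± 0.15 with PT (adjusted p = 0.498). None of the 17 hypoxia response genes, the class of genes to which Vegfa belongs, passed the adjusted test, and their median log2 fold change was 0.10 in SCR and 0.09 in PT lungs. Those with an unadjusted p under 0.05 were 1 lower and 1 higher gene in SCR lungs, where 10.2% of all genes were lower and 8.58% higher. In PT lungs 1 gene was lower and none higher, beside 4.73% and 2.93% of all genes, so the list did not stand out. The lower gene in PT lungs was Epas1, the endothelial hypoxia-inducible factor (-0.49 ± 0.14, adjusted p = 0.494). With lungs 1 to 3 left out the SCR median was -0.07, and none of the 17 had an unadjusted p under 0.05, beside 5.41% of all genes lower and 4.72% higher.

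Kdr (chr5:75932827-75978458, minus strand), which encodes VEGFR2, was at 541, 622, 682 and 516 CPM in CTR lungs 1, 2, 4 and 5. SCR lungs 1 to 6 had 210.3, 290.3, 292, 508, 509 and 496 CPM, and PT lungs had 445, 479.7, 395, 436 and 398 CPM. Every SCR and every PT lung was below every CTR lung, SCR lungs 1 to 3 far below and SCR lungs 4 to 6 by little. On the authors' FPKM this held for PT lungs only, since SCR lung 4 was listed at 79.8 FPKM, the same value as CTR lungs 1, 2 and 5. It was the only member whose groups did not overlap, where 2.52% of all genes in SCR and 1.87% in PT lungs lay wholly below CTR, and 1.49% and 1.51% wholly above. Between PT and SCR lungs no member was free of overlap, and 0.775% of all genes lay wholly lower and 0.895% wholly higher in PT lungs. In SCR lungs the level was 0.651 times that of CTR, a log2 fold change of -0.62 ± 0.22 (SE, adjusted p = 0.156). Without SCR lungs 1 to 3 it was -0.19 (adjusted p = 0.583), so most of the SCR difference came from those lungs. In PT lungs the log2 fold change was -0.45 ± 0.23 (SE, adjusted p = 0.669), and -0.44 (adjusted p = 0.174) in the fit without SCR lungs 1 to 3, in which the shared estimate of the spread no longer held those lungs. With sex in the model the log2 fold changes were -0.74 in SCR and -0.56 in PT lungs, and in male lungs alone -0.85 and -0.40. SCR lungs 1, 2 and 3 were 3 of the 4 male SCR lungs, so the SCR value of male lungs rests mainly on them.

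Flt4 (chr11:49609263-49652739, plus strand), which encodes VEGFR3, was at 73.7, 90.9, 91.0 and 57.3 CPM in CTR lungs. SCR lungs had 37.9 at the lowest, 52.6 at the median and 59.7 CPM at the highest, and PT lungs had 54.6, 63.3, 41.4, 49.0 and 46.4 CPM. CTR lung 5 lay among the exposed lungs, and the other CTR lungs were above all of them. The level was 0.653 times that of CTR in SCR (log2 fold change -0.61 ± 0.16, SE, adjusted p = 0.10) and 0.651 times in PT lungs (-0.62 ± 0.17, SE, adjusted p = 0.494). It was the gene of the set nearest the threshold: in SCR lungs its adjusted p was 0.0227 by DESeq2, 0.0304 by edgeR's likelihood ratio test, where 2.19% passed, and 0.0499 without CTR lung 5, where 0.55% passed. Without SCR lungs 1 to 3 the SCR value was -0.41 (adjusted p = 0.471). On the authors' FPKM with a pseudocount of 1, limma gave a log2 fold change of -0.36.

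Flt1 (chr5:147561604-147726011, minus strand), which encodes VEGFR1, a strong binder of VEGF-A with weak kinase activity, was at 354, 368, 412 and 274 CPM in CTR lungs. SCR lungs had 242 at the lowest, 286 at the median and 354 CPM at the highest. PT lungs had 204, 276, 254, 287 and 253 CPM. PT lungs 2 and 5 were just above the lowest CTR lung, and the other PT lungs were below all CTR lungs. The log2 fold change was -0.47 ± 0.15 in PT (SE, adjusted p = 0.516) and -0.29 ± 0.14 in SCR lungs (SE, adjusted p = 0.292), or -0.21 in SCR lungs without lungs 1 to 3. Nrp1 (chr8:128359073-128505462, plus strand), the co-receptor, was at 608, 366, 442 and 511 CPM in CTR lungs. In SCR lungs 1 to 6 it was at 274, 421, 309.8, 485, 524 and 512 CPM, with lungs 1 and 3 lowest, and PT lungs lay within 381 to 445 CPM. The differences of -0.19 ± 0.19 in SCR (SE, adjusted p = 0.605) and -0.21 ± 0.19 in PT lungs (SE, adjusted p = 0.846) were small beside the spread of the CTR lungs. Leaving out SCR lungs 1 to 3, the SCR value changed sign to 0.10. Nrp2, the related co-receptor that binds VEGF-C, had a log2 fold change of -0.55 ± 0.19 with SCR (adjusted p = 0.156), which was -0.18 without SCR lungs 1 to 3, and -0.25 ± 0.20 in PT lungs.

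RefSeq promoters (GRCm38.p6) were found for 8 of the 10 genes, and those of Kdr, Flt1 and Tek are shown because these receptors are made mainly by endothelial cells and had lower CPM in the exposed lungs. Flt4 meets both points too but is not printed, since its RefSeq start site lies 416 bases inside the gene as the authors placed it, so that the window before that site is not upstream of their gene. Each line gives the 250 bases before the start site, 5′ to 3′ on the strand of the gene, with GGAA, the core letters bound by ETS factors, or its reverse complement TTCC in capitals.
Kdr (chr5:75978456-75978705, minus strand): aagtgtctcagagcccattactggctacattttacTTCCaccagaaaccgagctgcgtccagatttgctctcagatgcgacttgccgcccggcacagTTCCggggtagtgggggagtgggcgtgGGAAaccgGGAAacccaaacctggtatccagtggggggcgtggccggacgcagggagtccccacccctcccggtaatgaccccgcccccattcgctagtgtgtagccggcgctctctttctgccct
Flt1 (chr5:147726012-147726261, minus strand): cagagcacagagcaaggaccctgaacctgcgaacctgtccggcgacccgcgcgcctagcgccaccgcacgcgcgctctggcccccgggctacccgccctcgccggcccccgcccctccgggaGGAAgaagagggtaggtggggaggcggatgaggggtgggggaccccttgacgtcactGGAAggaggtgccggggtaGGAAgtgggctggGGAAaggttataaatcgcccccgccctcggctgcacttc
Tek (chr4:94739039-94739288, plus strand): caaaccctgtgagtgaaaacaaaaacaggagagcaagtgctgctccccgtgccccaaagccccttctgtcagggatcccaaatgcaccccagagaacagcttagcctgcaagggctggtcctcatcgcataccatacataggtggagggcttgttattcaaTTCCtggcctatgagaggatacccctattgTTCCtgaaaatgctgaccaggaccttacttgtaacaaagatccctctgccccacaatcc

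On both strands, GGAA occurred 4 times before Kdr, 4 times before Flt1 and 2 times before Tek. It is common, since 93.4% of the 32851 mouse promoters hold it at least once in the same window, 33.4% hold at least 4 and 76.8% at least 2 matches. The letters GGGCGG, an Sp1 core, occurred 2 times before Kdr, 3 times before Flt1 and not before Tek, and 32.7% of promoters hold them. The hypoxia core ACGTG was found before none of these 3 genes, nor within 250 bases before the upstream start site of Vegfa, and 16.6% of promoters hold it. The second start site of Vegfa, 7214 bases downstream, has 1 match. The AP-1 letters TGANTCA were found in none of the members' windows, and 6.75% of promoters hold them. Matches of GGAA and GGGCGG shared no base in any of the 3 windows. A match is a description of letters, and the data hold no measure of factor binding.

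Tek (chr4:94739289-94874976, plus strand), which encodes Tie2, was at 661, 567, 598 and 483 CPM in CTR lungs. SCR lungs had 317 at the lowest, 437 at the median and 571 CPM at the highest. PT lungs had 450.3, 516, 395, 369 and 349 CPM. SCR lung 2 and PT lung 2 reached into the CTR range, and the remaining exposed lungs were below every CTR lung. The log2 fold change was -0.40 ± 0.16 in SCR (SE, adjusted p = 0.197) and -0.47 ± 0.16 in PT lungs (SE, adjusted p = 0.568). Without SCR lungs 1 to 3 the values were -0.35 in SCR and -0.46 with PT (adjusted p = 0.473 and 0.201). Tek had an unadjusted p under 0.05 in 28 of 33 other settings of the processing with SCR, and in 28 of 33 with PT. Those without one included male lungs alone in both exposures and limma on the authors' FPKM in PT lungs.

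Angpt1 (chr15:42424727-42676977, minus strand), the Tie2 agonist made by mesenchymal cells, was the most uneven member among controls. CTR lungs 1, 2, 4 and 5 had 259, 89.7, 96.9 and 214 CPM, a coefficient of variation of 51.4%. SCR lungs had 144 at the lowest, 161 at the median and 203 CPM at the highest, a coefficient of variation of 12.6%, and PT lungs had 102, 118, 179.6, 124 and 166 CPM. CTR lungs 2 and 4 were the lowest and CTR lungs 1 and 5 the highest of all 15 lungs, and every SCR and PT lung lay between them. The log2 fold change was -0.0047 ± 0.26 in SCR (SE, adjusted p = 0.995; -0.05 without SCR lungs 1 to 3) and -0.26 ± 0.27 in PT lungs (SE, adjusted p = 0.874), and neither difference was larger than the spread of the CTR lungs. Nrp1 showed the same order in the controls, with CTR lungs 1 and 5 above CTR lungs 2 and 4. An antisense gene, Gm17473, shares 737 exonic bases with Angpt1 and had at most 67 reads in any lung, whereas Angpt1 had at least 1203; reads of the shared stretch cannot be told apart without strand.

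Angpt2 (chr8:18690263-18741562, minus strand), the context-dependent Tie2 ligand stored in endothelial cells, was at 33.2, 33.3, 33.9 and 26.8 CPM in CTR lungs. SCR lungs 1 to 6 had 18.1, 22.9, 23.3, 31.9, 35.3 and 35.5 CPM, and PT lungs had 29.6, 27.8, 17.7, 18.1 and 33.5 CPM. SCR lungs 1 to 3 and PT lungs 3 and 5 were below every CTR lung, whereas SCR lungs 5 and 6 were above every CTR lung. The log2 fold change was -0.19 ± 0.21 in SCR (SE, adjusted p = 0.664) and -0.33 ± 0.22 in PT lungs (SE, adjusted p = 0.778), and the SCR value turned to 0.14 without SCR lungs 1 to 3. Angpt2 lies inside Mcph1 on the opposite strand, with no exonic base in common. Tie1, the orphan partner of Tie2, had a log2 fold change of -0.54 ± 0.17 with SCR (adjusted p = 0.127) and -0.47 ± 0.17 with PT (adjusted p = 0.587). Ptprb, the phosphatase that dampens Tie2, had a log2 fold change of -0.12 ± 0.20 in SCR and -0.46 ± 0.21 with PT (adjusted p = 0.639), and Angpt4 of -0.42 ± 0.41 and -0.57 ± 0.43.

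**Figure D3:**
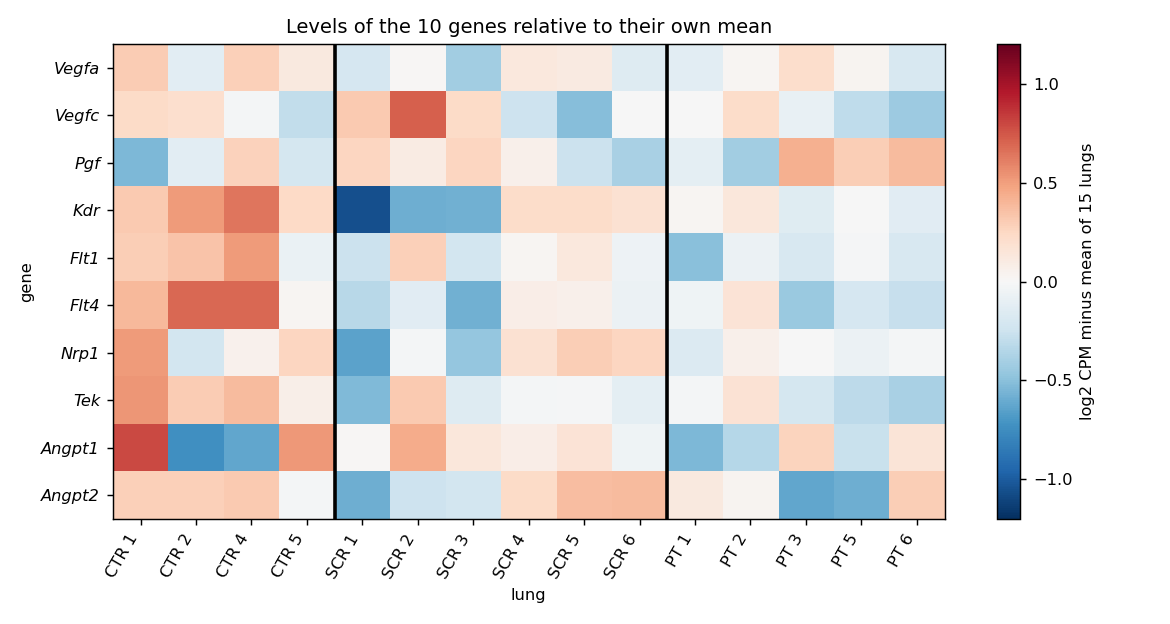
Log2 CPM of each gene (rows) minus its mean over the 15 lungs (columns, grouped as CTR, SCR and PT), red above and blue below the mean. Kdr, Flt1, Flt4 and Tek are red in CTR lungs 1, 2 and 4, Kdr is bluest in SCR lung 1 and blue in SCR lungs 2 and 3, and Angpt1 is blue in CTR lungs 2 and 4 but red in CTR lungs 1 and 5.

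Over the 15 lungs, the pattern of each member was compared with those of all genes at a mean of at least 1 CPM, by the root mean square (RMS) of the differences in centred log2 CPM, where a smaller value means a closer likeness. Kdr was matched most closely by Sh3bp5 at 0.07 and Dlc1 at 0.09, although its own RMS spread was 0.43. Hcfc1 was the third in this order (0.11). For Flt4 the nearest were Polr2a, Pdcd11 and Stab1 (0.10, own spread 0.36), for Flt1 Magi1, Dock9 and Kif13a (0.10 to 0.11, own spread 0.26), and for Tek Tanc1, Pard3 and Dlg5 (0.14 to 0.16, own spread 0.29). Nrp1 was nearest to Lrig2, Cdk13 and Gnaq (0.10 to 0.11), and Vegfa to Mapk8ip3, Abcc5 and Ddx17 (0.10 to 0.11). Angpt1 was nearest to Tmem47 at 0.13, with Rora and Nox4 at 0.17, against its own spread of 0.42. Angpt2 (Veph1, Prdm6 and Maml3, 0.18) and the scarce Vegfc (Grtp1, Prodh and Tle1, 0.18 to 0.20) and Pgf (Rad1, Lactb and Uxs1, 0.19 to 0.20) had their nearest genes further away. These values share library depth and are a description.

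The receptors were next set against the endothelial content of each lung. Of 16 pan-endothelial markers, 7 had an unadjusted p under 0.05 on the lower side in SCR lungs and 4 in PT lungs, with none higher and none past the adjusted test, and their median log2 fold changes were -0.24 and -0.19, beside 0.01 for all genes. With SCR lungs 4 to 6 only, 9 were lower and none higher (median -0.39). The shares of all genes at this threshold were 10.2% lower and 8.58% higher in SCR, and 4.73% and 2.93% in PT lungs. With SCR lungs 4 to 6 only, the shares were 5.41% and 4.72%. By lung, these markers averaged a log2 CPM of 7.56 to 8.08 in CTR, 7.46 to 7.72 in the SCR lungs and 7.40 to 7.81 in the PT lungs. Cdh5, the junction protein VE-cadherin, had the smallest p of them in SCR lungs (-0.76 ± 0.17, adjusted p = 0.0783; in PT lungs -0.55 ± 0.18, adjusted p = 0.516). Eng, a TGF-beta co-receptor of endothelium, had a log2 fold change of -0.50 ± 0.13 in SCR and -0.34 ± 0.14 in PT lungs, and Mmrn2, a matrix protein of vessels, of -0.63 ± 0.18 and -0.55 ± 0.19.

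Relative to these markers, Kdr stood on the log2 scale at 1.34 to 1.45 in CTR lungs. SCR lungs 1 to 6 were at -0.0023, 0.62, 0.71, 1.50, 1.54 and 1.44, and PT lungs at 0.99 to 1.23. PT lungs were thus below every CTR lung also relative to the markers, SCR lungs 1 to 3 were lower still, and SCR lungs 4 to 6 were at or above the upper end of the CTR range. Flt4 relative to the markers was -1.72 to -1.38 in CTR, -2.24 to -1.58 in the SCR lungs and -2.03 to -1.73 in the PT lungs, with the highest PT lung just under the lowest CTR lung. Flt1, Tek and Nrp1 relative to the markers overlapped between all groups. The share of all genes that lay wholly below CTR on this scale was not computed, so the lack of overlap of Kdr and Flt4 has no background beside it. With the marker mean as a term in the model, no member had an unadjusted p under 0.05 in SCR lungs, where 15.7% of all genes had one: Kdr was at -0.60 (adjusted p = 0.327) and Flt4 at -0.33 (adjusted p = 0.356). In PT lungs Flt1 at -0.40, Flt4 at -0.40 and Angpt1 at -0.66 had one, beside 8.1% of all genes, with an adjusted p of 0.603 for each. In the same model without SCR lungs 1 to 3, a setting chosen after seeing the data, Kdr was at 0.02 and Flt4 at -0.02 in SCR lungs, and only Angpt1 (-0.77) had an unadjusted p under 0.05 there, beside 3.93% of all genes. In PT lungs Kdr (-0.29), Flt1 (-0.36), Flt4 (-0.34), Tek (-0.33) and Angpt1 (-0.74) had one, beside 10.9% of all genes, with adjusted p from 0.410 to 0.446. Among all SCR lungs only lung 1 (7.72) lay within the CTR range of the marker mean (7.56 to 8.08). SCR lungs 4, 5 and 6, at 7.49, 7.46 and 7.51, lay below every CTR lung. Marker content and exposure can thus hardly be told apart in SCR lungs with all lungs in the model. Without SCR lungs 1 to 3 they cannot be told apart. The part of endothelial content in the group differences was not tested.

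**Figure D4:**
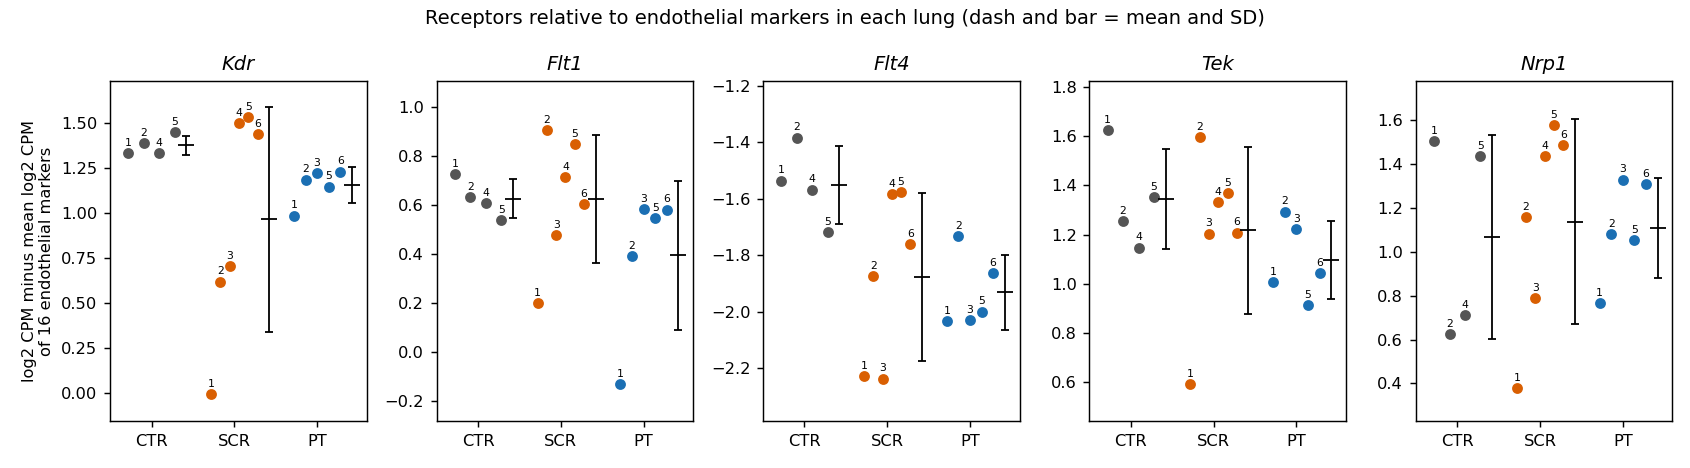
Log2 CPM of Kdr, Flt1, Flt4, Tek and Nrp1 minus the mean log2 CPM of 16 pan-endothelial markers (y axis) in each CTR, SCR and PT lung (x axis), with the mean and SD as dash and bar. For Kdr the PT lungs (0.99 to 1.23) lie below the CTR lungs (1.34 to 1.45), and SCR lungs 1 to 3 lie below both.

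Ratios of members within a lung, per kilobase and on the log2 scale, are given without a test. Angpt2 to Angpt1 was -2.76, -1.23, -1.31 and -2.79 in CTR lungs 1, 2, 4 and 5, -2.94 to -1.81 in the SCR lungs and -3.14 to -1.59 in the PT lungs. Angpt1 exceeded Angpt2 in every lung, and the exposed lungs overlapped the wide range of the controls. Flt1 to Kdr was -1.49 to -1.19 in CTR lungs and -0.38, -0.29, -0.81, -1.37, -1.27 and -1.42 in SCR lungs 1 to 6. SCR lungs 1 to 3 held more Flt1 relative to Kdr than any other lung, and SCR lungs 4 to 6 and PT lungs (-1.70 to -1.18) did not stand apart from CTR by more than the spread. Vegfa to Flt1, the ligand against the receptor that can trap it, was 2.46 to 3.13 in CTR, 2.65 to 3.03 in the SCR lungs and 2.93 to 3.33 in the PT lungs. Pgf to Vegfa was -6.97 to -6.11, -6.48 to -5.43 and -6.57 to -5.52, and the groups overlapped for both.

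**Figure D5:**
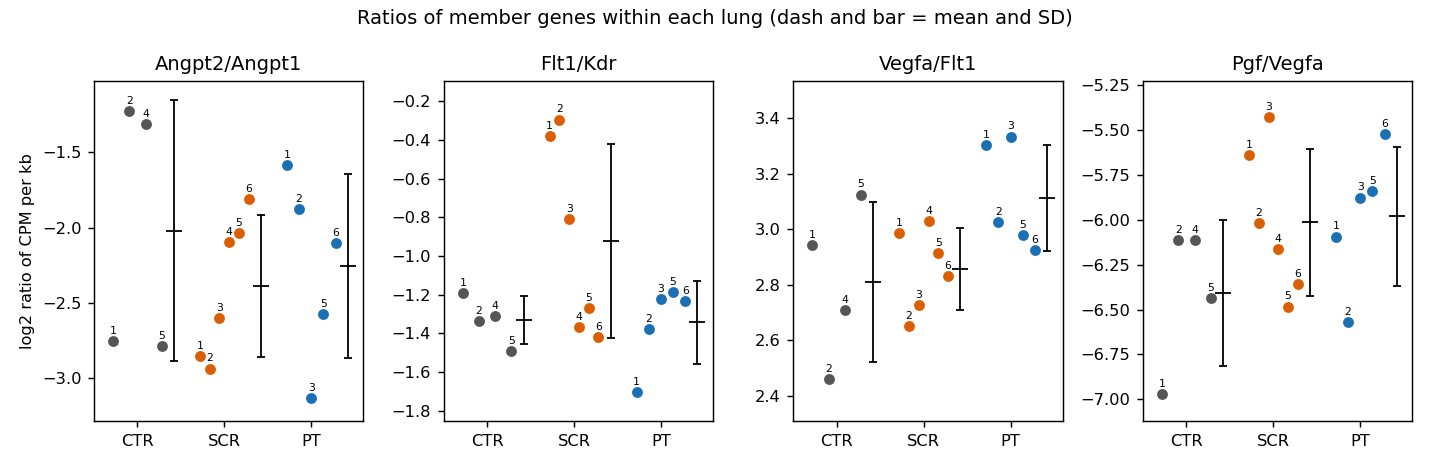
Log2 ratios of CPM per kb (y axis) of Angpt2 to Angpt1, Flt1 to Kdr, Vegfa to Flt1 and Pgf to Vegfa in each CTR, SCR and PT lung (x axis), with the mean and SD as dash and bar. Flt1 to Kdr is -0.81 to -0.29 in SCR lungs 1 to 3 and at most -1.18 in the other lungs, and Angpt2 to Angpt1 splits the CTR lungs into -1.31 and -1.23 against -2.79 and -2.76.

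Genes that act with the receptors were described from wider lists. The counts below are to be read beside the share of all genes at the same threshold, which was 10.2% lower and 8.58% higher in SCR lungs, 5.41% and 4.72% in SCR lungs without lungs 1 to 3, and 4.73% and 2.93% in PT lungs. Of 22 genes of VEGF receptor signal transduction, those with an unadjusted p under 0.05 were 7 lower and 1 higher in SCR lungs (median log2 fold change -0.24), and 4 were lower in PT lungs (median -0.13). The mean log2 CPM of these genes was 5.96, 6.27 and 6.02 in SCR lungs 1, 2 and 3, below every CTR lung (6.41 to 6.62), and 6.36 to 6.50 in SCR lungs 4 to 6, near or within the CTR range. With SCR lungs 4 to 6 only, 4 were lower and none higher (median -0.13). Src, a kinase that relays VEGFR2 signals to junctions, had a log2 fold change of -0.44 ± 0.12 with SCR (adjusted p = 0.10) and -0.11 ± 0.12 in PT lungs. Prkca, protein kinase C alpha, had a log2 fold change of 0.11 ± 0.25 in SCR and -0.93 ± 0.26 with PT (adjusted p = 0.494). Of 15 genes of the VEGF early response and of tip cells, 8 were lower and 1 higher in SCR lungs (median -0.45) and 1 was lower in PT lungs (median -0.19). Leaving SCR lungs 1 to 3 out, 7 were lower and none higher (median -0.28). Rcan1, a calcineurin inhibitor that VEGF-A induces, had a log2 fold change of -0.66 ± 0.13 with SCR (adjusted p = 0.0523) and -0.19 ± 0.14 in PT lungs. Sele, E-selectin, had a log2 fold change of -1.66 ± 0.39 with SCR (adjusted p = 0.0838) and -0.29 ± 0.40 in PT lungs, and Apln, the tip cell peptide apelin, of -0.68 ± 0.23 and -0.47 ± 0.24.

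In the endothelial Notch pathway, which restrains sprouting, 4 of 10 genes were lower and 1 higher in SCR lungs and 4 were lower in PT lungs (medians -0.29 and -0.31). The fit without SCR lungs 1 to 3 had 3 lower and none higher in SCR lungs (median -0.16). Notch1 had a log2 fold change of -0.57 ± 0.17 with SCR (adjusted p = 0.119) and -0.58 ± 0.17 with PT (adjusted p = 0.498), and Efnb2, the arterial ephrin, of -0.39 ± 0.14 and -0.48 ± 0.15. Of 12 class 3 semaphorin and plexin genes, whose products share neuropilins with VEGF, 5 were lower with SCR and 5 with PT (medians -0.29 and -0.37). Their mean log2 CPM was 6.11, 6.39 and 6.16 in SCR lungs 1, 2 and 3 and 6.65, 6.72 and 6.36 in SCR lungs 4, 5 and 6, against 6.66 to 6.81 in CTR lungs, so that SCR lungs 4 and 5 were near or within the CTR range. In the fit without SCR lungs 1 to 3, 3 were lower and none higher (median -0.20). Plxnd1, the endothelial plexin, had a log2 fold change of -0.77 ± 0.24 with SCR (adjusted p = 0.135) and -0.40 ± 0.25 in PT lungs (-0.32 in SCR without lungs 1 to 3), and Sema3b of -0.51 ± 0.17 and -0.59 ± 0.18. Among the lists examined, only the secreted inhibitors of angiogenesis held genes past the adjusted test against CTR. Of 9, 6 had an unadjusted p under 0.05 on the lower side in SCR lungs, and 2 fell past the adjusted test, with a median of -0.75 in SCR and -0.19 in PT lungs. Thbs1, thrombospondin 1, fell by 1.92 ± 0.34 on the log2 scale (adjusted p = 0.0450) and Adamts1, a protease that binds VEGF-A, by 1.52 ± 0.25 (adjusted p = 0.0416). In PT lungs their log2 fold changes were -0.59 ± 0.36 and -0.76 ± 0.26 (adjusted p = 0.743 and 0.565). When SCR lungs 1 to 3 were left out, 5 of the 9 inhibitors were lower (median -0.47), with Thbs1 at -1.49 and Adamts1 at -1.12 (adjusted p = 0.428 and 0.426). In that fit no gene of the whole table passed the adjusted edgeR test in SCR lungs, and 1614 had an unadjusted p under 0.05.

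Markers of the cell types that make or receive these signals were counted in the same way, at an unadjusted p under 0.05, and none of them passed the adjusted test. General capillary markers had 4 of 10 lower and 1 higher in SCR lungs and none of 10 lower or higher in PT lungs (median log2 fold changes -0.39 and -0.25). Aerocyte markers, of the capillary cells of gas exchange that are rich in Kdr, had 1 of 10 lower and none higher in SCR and none of 10 lower or higher in PT lungs (medians -0.14 and -0.24). Arterial and venous markers had 4 of 10 lower and 1 higher in SCR and 2 of 10 lower and none higher in PT lungs (medians -0.22 and -0.14). Their log2 fold changes were mixed, with 3 of 10 above 0 in SCR and 2 of 10 in PT lungs. Vwf, von Willebrand factor, was at -0.76 ± 0.23 and -0.81 ± 0.24 (adjusted p = 0.124 and 0.494), further from 0 than these medians. For lymphatic endothelium, the classic site of Flt4, the counts were 1 of 7 lower and 1 higher in SCR and 1 of 7 lower and none higher in PT lungs, and the medians 0.03 and -0.18.

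Angpt1 is made by mesenchymal cells. Pericyte markers had 4 of 11 lower and none higher in SCR and 2 of 11 lower and none higher in PT lungs (medians -0.35 and -0.28), and fibroblast markers had 7 of 12 lower and none higher in SCR and 5 of 12 lower and none higher in PT lungs (medians -0.51 and -0.34). Notch3, the pericyte Notch receptor, had a log2 fold change of -0.82 ± 0.19 (adjusted p = 0.0793) after SCR and of -0.62 ± 0.20 in PT lungs, and Col13a1, a collagen of alveolar fibroblasts, of -0.82 ± 0.16 (adjusted p = 0.0521) and -0.58 ± 0.17. Alveolar type 1 markers, of the cells that supply Vegfa, had 3 of 12 lower and none higher in SCR and 6 of 12 lower and none higher in PT lungs (medians -0.24 and -0.37), and alveolar type 2 markers 3 of 10 lower and none higher and 1 of 10 lower and 1 higher. Mesothelial markers had none of 10 lower or higher in SCR and none of 10 lower or higher in PT lungs, and their mean log2 CPM was 3.72, 2.23 and 1.37 in SCR lungs 1, 2 and 3, against 4.75 to 5.25 in SCR lungs 4 to 6. Glucocorticoid response genes had 2 of 13 lower and 5 higher in SCR and 1 of 13 lower and none higher in PT lungs. Neutrophil markers had 1 of 10 lower and none higher in SCR and none of 10 lower and 5 higher in PT lungs (medians -0.09 and 1.09), and their summed level was 264 to 1103 CPM in CTR, 172 to 1532 in the SCR lungs and 983 to 1764 in the PT lungs. The lower genes in SCR lungs without lungs 1 to 3 were 2 of 10 general capillary, 1 of 10 aerocyte, 1 of 10 arterial and venous, 1 of 7 lymphatic, 3 of 11 pericyte, 3 of 12 fibroblast, 6 of 12 alveolar type 1, 2 of 10 alveolar type 2 and 3 of 13 glucocorticoid response genes. In that fit none of these lists had a higher gene, and the mesothelial and neutrophil lists had none in either direction. The part of these cell types in the levels of the 10 genes was not tested.

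Set directly against each other, PT and SCR lungs had log2 differences of -0.25 (Angpt1) to 0.16 (Kdr) in the 10 genes, with adjusted p from 0.655 to 0.996. For Kdr the log2 difference of 0.16 ± 0.20 (SE, adjusted p = 0.807) turned to -0.25 (adjusted p = 0.533) without SCR lungs 1 to 3, and SCR lungs 4 to 6 were above all PT lungs. Angpt2 went from -0.14 ± 0.20 (SE, adjusted p = 0.842) to -0.45 (adjusted p = 0.508), the only member with an unadjusted p under 0.05 in that fit, where 9.37% of all genes had one. For Flt4 the log2 difference was -0.0044 ± 0.15 (SE, adjusted p = 0.996).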

How the data were processed

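The authors sequenced lung RNA as single-end reads. The submitters' processing notes name cutadapt 1.15, Bowtie2 2.3.3.1, STAR 2.5.2b, SAMtools 1.5, featureCounts 1.5.3 and the GRCm38 build. Whether counting used strand is not given in the sources used here. The deposited raw counts covered 46603 genes. The authors' FPKM values, normalized within and between samples with EDASeq, covered 16137 genes. The deposited annotation gives GC content in percent. Nothing says more of the replicates than that they are separate lungs, and p-values measure the spread between them.

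Counts were tested with edgeR 4.0.16 in R 4.3.3 (filterByExpr, TMM, quasi-likelihood test, 1 fit of all 15 lungs with group as the only term) and adjusted over 15870 genes by Benjamini-Hochberg. Log2 CPM used a prior count of 2. All members were named. Of each other list, genes of smallest unadjusted p against CTR (up to 2 per comparison) and any past the adjusted test were eligible, as were the 3 genes of nearest pattern. Members and lists were chosen with earlier results of these data known. Alternatives were other scalings and filters, a GC offset (lowess span 0.3), sex or endothelial markers as terms, DESeq2 1.42.0, limma 3.58.1 on log2(FPKM + 1) or log2(FPKM + 0.1), the replicate block and left-out lungs. In simulated counts of SCR against CTR (15870 genes), edgeR called 41 of 49 genes lowered by 2, 32 of 49 lowered by 1, 29 of 50 raised by 1 and 48 of 50 raised by 2 on the log2 scale, and 9 of 15530 without change. No change smaller than 1 was simulated, whereas the largest member difference against CTR was -0.62. Power at the sizes seen in the members was therefore not measured. The simulation held no subgroup of SCR lungs and no sex difference.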

Additional observations from a re-analysis of the deposited data

Results flagged for a closer look

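Among 57 sets of values of a gene or ratio within a group, 2 held a lung far from the others of its group, where chance gives about 1 in 20. CTR lung 5 had 26.8 CPM of Angpt2, while the other CTR lungs had at least 33.2 CPM, and this gap was 0.907 of the whole range. PT lung 1 had the lowest Flt1 relative to the pan-endothelial markers, at -0.13 on the log2 scale against 0.39 for the next PT lung, a gap of 0.733 of the range.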

How the results depend on the processing

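The 10 genes were recomputed under 33 other settings, 15 of which left out 1 lung each. Of 990 values, 926 kept their sign and their side of the adjusted threshold, 61 changed sign and 3 passed the threshold, all 3 for Flt4 in SCR against CTR. The number of members past the adjusted test in SCR against CTR was therefore 1 by DESeq2 and 1 by edgeR's likelihood ratio test, in place of 0, and it ran from 0 to 1 when 1 lung was left out, with 1 without CTR lung 5. It stayed at 0 under all settings in both other comparisons. Kdr, Flt1, Flt4 and Tek kept a negative log2 fold change against CTR in both exposures under all settings but 1, in which Kdr was at 0.0216 in SCR lungs. That setting, endothelial markers in the model without SCR lungs 1 to 3, was chosen after seeing the data, as was leaving out SCR lungs 1 to 3 alone. In it the marker mean did not overlap between SCR and CTR lungs.

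In SCR against CTR the log2 fold change of Angpt1 turned to 0.0217 with upper quartile scaling, 0.00674 with the replicate number as a block, 0.00698 in a fit of only the groups compared and 0.0591 in male lungs alone. Without SCR lungs 1 to 3 the sign changed for Vegfc (-0.25), Pgf (-0.0294), Angpt2 (0.14) and Nrp1 (0.10). In PT against CTR Vegfc turned to 0.0551 with endothelial markers in the model. In PT against SCR the log2 differences changed sign for Flt4 (0.0450) and Nrp1 (0.0190) with library size only, and for Nrp1 with a GC offset (0.0351) or with endothelial markers in the model (0.0369). By limma on FPKM + 1, with or without an FPKM filter, Pgf was at -0.00961, Tek at 0.0365 and Nrp1 at 0.0781, and with FPKM + 0.1 they were at -0.0110, 0.0369 and 0.0797. In male lungs alone the PT against SCR differences were -0.11 for Pgf, 0.19 for Flt4, 0.00118 for Tek, 0.29 for Angpt2 and 0.12 for Nrp1, and without SCR lungs 1 to 3 they were -0.0511 for Vegfa, 0.12 for Vegfc and -0.25 for Kdr. With endothelial markers in the model and SCR lungs 1 to 3 left out, signs also changed in SCR against CTR for Vegfc (-0.0375), Pgf (-0.11) and Angpt2 (0.28), in PT against CTR for Vegfc (0.0105), and in PT against SCR for Vegfa (-0.0354), Vegfc (0.0480), Kdr (-0.31) and Angpt1 (0.0350). The cause of these changes was not tested.

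Leaving out 1 lung at a time, sign changes occurred for Angpt1 (-0.21 to 0.30) and Vegfc (-0.0546 to 0.20) in SCR against CTR, for Angpt1 in PT against CTR (-0.46 to 0.0490), and for Flt4 (-0.0946 to 0.0626), Tek (-0.16 to 0.0162) and Nrp1 (-0.13 to 0.0539) in PT against SCR.

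The labels do not say whether the title numbers pair lungs across groups. Same-numbered lungs correlated at -0.30 to 0.38 in their deviations from the group means. Lungs of different number were not compared, so these values do not settle whether the numbers pair lungs. With the replicate number as a block, Flt4 in PT against SCR was at 0.0498 and Nrp1 at 0.0214, 0 members passed the adjusted test in each comparison, and 0 genes of the table passed in SCR against CTR.

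Over the whole table the number of genes past the adjusted test in SCR against CTR was 18, against 630 by DESeq2, 348 by the likelihood ratio test, 42 without a filter on low counts, 10 with a GC offset, 3 with upper quartile scaling, 2 by limma on FPKM and 1 with endothelial markers in the model. It was 0 with library size only, in male lungs alone, in a fit of only the groups compared and without SCR lungs 1 to 3 (with or without endothelial markers), and 0 to 108 when 1 lung was left out. In PT against CTR it was 0, against 25 by DESeq2, 11 by the likelihood ratio test, 2 or 3 by limma, 1 in male lungs alone and 0 to 3 leaving out 1 lung. In PT against SCR it was 6, against 238 by DESeq2, 183 by the likelihood ratio test, 19 with sex in the model, 11 without a filter, 9 with a GC offset, 4 with library size only or the block, 2 by limma on FPKM + 1, 1 without SCR lungs 1 to 3 (2 with endothelial markers as well) and 1 to 96 leaving out 1 lung. Pgf rested on the fewest reads of the members, 39 to 99 per lung.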
